A study of Homo sapiens with 12 samples.

Results

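The genes described here are the metalloproteinases and their inhibitors expressed in SW1736 cells, a human line from anaplastic thyroid cancer. They are the genes whose symbol is MMP, ADAM or ADAMTS followed by a number, or TIMP1 to TIMP4, and that reached at least 120 counts over the 12 RNA-seq libraries. Of 56832 symbols counted, 67 have such a symbol and 22 reached that total: 6 of 22 matrix metalloproteinases, 9 of 22 ADAMs, 4 of 19 ADAMTS genes and 3 of 4 TIMPs. The cells carried either the empty pCDH vector (EV) or pCDH with the thyroid hormone receptor beta (TRB), stably introduced. Both were kept for 24 h without hormone, in medium free of phenol red with charcoal-stripped serum, followed by 24 h with triiodothyronine (T3, 10 nM) or with NaOH, its vehicle. There were 3 libraries in each of the 4 groups (EV with vehicle, EV with T3, TRB with vehicle, TRB with T3). The labels do not say whether libraries of a group came from separate cultures, so p-values measure the spread between these libraries, which may be technical. All groups are stable derivatives of 1 line, and whether the transduced cells are 1 clone or a pool is not stated in the sources used here.

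Matrix metalloproteinases (MMPs) are zinc-dependent enzymes that cleave collagens, other matrix proteins and many cell-surface proteins. Most are made as inactive precursors that other proteases, such as plasmin or furin, activate. ADAMs are membrane proteins, several of which release growth factors and receptors from the cell surface, and ADAMTS enzymes are secreted relatives that act on proteoglycans and other matrix proteins. TIMPs bind the active site of these enzymes and block it, and TIMP2 also takes part in the activation of proMMP2 by MMP14 at the cell surface. In carcinomas, many of these genes are expressed by the cancer cells and many others by stromal and inflammatory cells. The liganded thyroid hormone receptor binds DNA at repeats of the sequence AGGTCA and changes the transcription of nearby genes.

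Gene counts ran from 3819306 to 13086717 per library, and the receptor gene THRB lay at 12.3 to 18.3 CPM (counts per 1000000 gene counts, scaled by TMM) in the EV libraries, 79.8 to 80.4 in TRB with vehicle and 190 to 322 in TRB with T3. Follicular thyroid markers were low: FOXE1 and TSHR were at 0 and the 7 genes of that list summed to 1.08 to 10.9 CPM. Epithelial markers were abundant, EPCAM at 317 to 1100 CPM. Of the 4 mesenchymal markers CDH2 was at 0 and VIM did not exceed 1.51 CPM. Their sum was 15.4 to 18.3 CPM for EV with vehicle, 66.8 to 75.2 for EV with T3, 10.3 to 11.3 for TRB with vehicle and 153 to 306 for TRB with T3, where FN1 reached 303. The leukocyte markers PTPRC, ITGAM and CD68 did not exceed 1.01 CPM, CD14 did not exceed 9.74, and LYZ, at 778 to 1589 CPM, made up nearly all of that list. Of the fibroblast markers COL1A2 was at 0, PDGFRB, THY1, LUM and DCN did not exceed 0.217 CPM, and COL1A1 was at 1.44 to 33.2. The part of this FN1 difference in the results that follow was not tested, and in bulk RNA a change in the number of expressing cells cannot be told apart from a change in RNA per cell.

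Replicate 2 of TRB with T3 stood apart from the other 11 libraries, so the fits of the members were made with it and without it. In that library all 12 members whose transcripts hold at least 50% G and C were lower than the mean of replicates 1 and 3, and 9 of the 10 members below 50% were higher. ADAMTS9 was the exception among the latter. Across the 22 members of this 1 group of libraries, Spearman's rho between GC content and the ratio of replicate 2 to the other replicates was -0.88, given as a description. The biological coefficient of variation over all genes, edgeR's measure of the spread between replicates, was 0.329 with the library and 0.131 without it. Over all genes tested, its deviations from the group mean correlated most with those of replicate 2 of EV with T3 (r = 0.73). Next came replicate 2 of EV with vehicle (r = 0.50). Both of these libraries stay in the fit without replicate 2 of TRB with T3, so that shared part is not removed. What made replicate 2 of TRB with T3 differ was not tested.

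**Figure D1:**
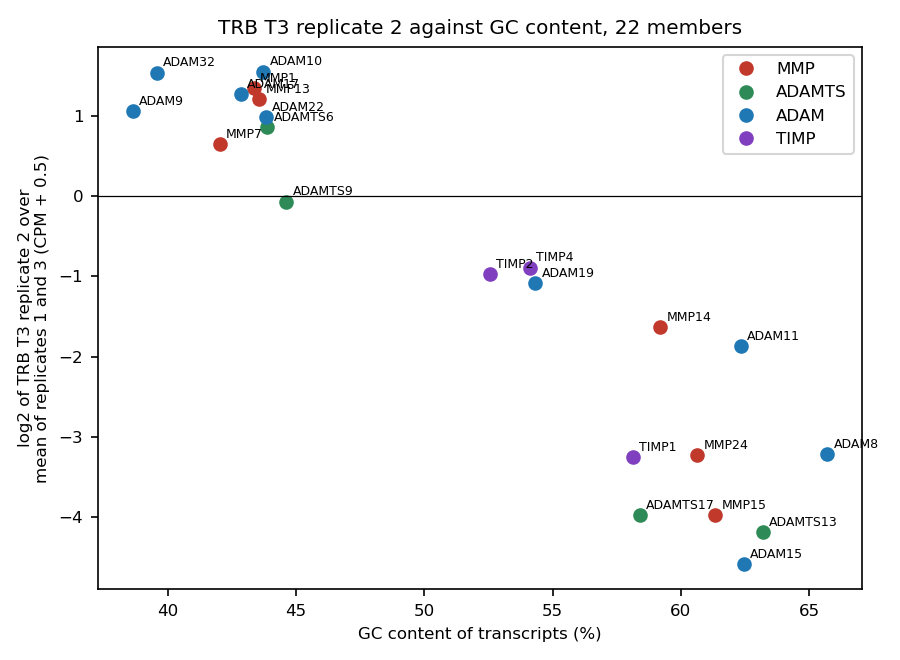
Log2 ratio of TRB with T3 replicate 2 over the mean of replicates 1 and 3 (CPM with 0.5 added) against the GC content of each member's transcripts in percent, 1 point per member. The 12 members at or above 50% lie below 0, and 9 of the 10 members under 50% lie above it.

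The member with the highest level after T3 was MMP7, matrilysin, a small MMP that epithelial cells make. The gene lies on the minus strand at chr11:102520508-102530753 (hg38, GENCODE 29), in the same stretch of chromosome 11 as MMP1 (chr11:102789920-102798160) and MMP13 (chr11:102942995-102955734). Of the 15 members with an entry among RefSeq's promoters (GRCh38.p14), MMP7 alone held an AP-1 motif (TGANTCA) or a TATA motif (TATAAA, either strand) in the 250 bases before its start. MMP1, MMP13, TIMP2, ADAMTS9, ADAM9, ADAM11 and ADAM32 had no entry and were not searched, so whether they hold these motifs is not known here. Over all 35116 promoters of that length, 6.57% held the AP-1 letters and 10.72% the TATA letters. Its promoter is shown because MMP7 responded to T3 in both kinds of cells and reached the highest level of any member. It covers chr11:102530748-102530997 on the minus strand, with 33.6% G and C, and the capitals mark the AP-1 letters, which begin 67 bases before the start, and the TATA letters, which begin 30 bases before it:
MMP7: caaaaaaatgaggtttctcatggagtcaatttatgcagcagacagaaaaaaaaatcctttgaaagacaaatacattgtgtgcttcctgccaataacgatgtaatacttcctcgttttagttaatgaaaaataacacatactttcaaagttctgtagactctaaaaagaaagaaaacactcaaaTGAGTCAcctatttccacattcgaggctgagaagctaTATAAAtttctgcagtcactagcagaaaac
The AGGTCA letters of a thyroid hormone response element half-site, on either strand, were found in 12.08% of all promoters. Among the 15 members searched, those of MMP15 and TIMP4 held them, and this MMP7 window did not. These matches describe letters, not occupied sites.

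MMP7 was at 67.3, 75.5 and 77.9 CPM in EV with vehicle and at 358, 360 and 308 with T3. In TRB cells it was at 30.4, 38.5 and 35.9 CPM with vehicle and at 1679, 2671 and 1727 with T3. The 4 groups did not overlap: TRB with vehicle was lowest, then EV with vehicle, EV with T3 and TRB with T3. With T3, MMP7 rose by 5.86 on the log2 scale in TRB cells (SE 0.245, edgeR quasi-likelihood test, adjusted p = 5.12e-07) and by 2.22 in EV cells (SE 0.208, adjusted p = 0.00124). Without replicate 2 the changes were 5.65 (SE 0.138) and 2.22 (SE 0.116). The response in TRB cells exceeded that in EV cells by 3.64 (SE 0.291, adjusted p = 0.000295), or 3.44 without replicate 2 (adjusted p = 1.19e-07). In vehicle, MMP7 was lower in TRB than in EV cells by a log2 fold change of -1.07 (SE 0.203, adjusted p = 1). That difference passed the test without replicate 2 (log2 fold change -1.06, SE 0.116, adjusted p = 0.00264). Per kilobase of exon, MMP7 in EV cells with vehicle averaged 31.7 CPM, below ADAM9 (44.1) and TIMP1 (35.9) and above TIMP2 (19.2) and MMP15 (18.5). In TRB cells with T3 it averaged 872 CPM per kilobase, or 733 without replicate 2, the highest level of any member, followed by TIMP2 at 163 or 195.

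The collagenases MMP1 and MMP13, which cleave fibrillar collagen, were scarce. MMP13 was at 0, 0.25 and 0.46 CPM for EV with vehicle, 0, 0.42 and 0.51 for EV with T3, and 0.20, 0.09 and 0 for TRB with vehicle. It reached 3.75, 10.6 and 4.87 CPM in TRB with T3, above every library of the other groups. These are 3 counts over the TRB vehicle libraries and 148 with T3, a ratio of 61.2 with a 95% interval from counting error alone of 20.5 to 300.2. In EV cells the corresponding ratio was 1.05 (interval 0.299 to 3.43), from 8 and 6 counts. The rise in TRB cells passed edgeR's test (adjusted p = 0.000704, and 2.27e-05 without replicate 2), as did the difference from EV cells with T3 (adjusted p = 0.00676, and 0.000489 without it). The fitted fold changes of a gene this close to 0 depend on edgeR's prior count and do not measure the size of its change. MMP13 reached 120 counts only through TRB cells with T3, and 17 of its 165 counts lay elsewhere, so it is among the members because of the group in which it was high. MMP1 and ADAMTS17 would likewise have stayed under 120 without that group, at 108 and 103 counts.

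MMP1 was at 1.09, 1.39 and 1.56 CPM for EV with vehicle, 2.01, 1.16 and 1.27 for EV with T3, and 1.32, 1.03 and 1.26 for TRB with vehicle. In TRB with T3 it was at 1.95, 7.56 and 3.37 CPM, so that replicate 1 lay within the range of EV with T3. The rise in TRB cells was 1.76 on the log2 scale (SE 0.452 and adjusted p by edgeR 0.0251) and 1.13 without replicate 2 (SE 0.315, adjusted p = 0.0149). With all 3 T3 libraries kept, leaving out any 1 of the TRB vehicle libraries left it short of the threshold (adjusted p = 0.064, 0.0859 and 0.0735). MMP8, the other collagenase, was at 0 counts in all libraries.

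The membrane-type enzymes MMP14, MMP15 and MMP24, anchored at the cell surface, are GC-rich and give different answers with and without replicate 2. MMP24 was at 10.2, 8.99 and 11.3 CPM for EV with vehicle, 17.1, 11.5 and 20.0 for EV with T3, and 14.8, 11.98 and 12.4 for TRB with vehicle. In TRB with T3, replicates 1 and 3 were at 41.4 and 47.7 CPM, above all other libraries, and replicate 2 at 4.32 was below all of them. Its change in TRB cells missed the threshold over 12 libraries (log2 fold change 1.26, SE 0.605, edgeR adjusted p = 0.187). Without replicate 2 it rose by 1.82 (SE 0.184, adjusted p = 8.39e-06), which exceeded the change in EV cells by 1.18 (adjusted p = 0.011). MMP14, which activates proMMP2, was at 14.3, 11.8 and 12.2 CPM in EV cells with vehicle and at 18.1, 16.1 and 20.5 with T3. In TRB cells it was at 16.1, 17.6 and 14.5 CPM with vehicle and at 23.6, 7.92 and 27.5 with T3. Its log2 fold change was 0.30 over 12 libraries (adjusted p = 0.577), and it rose by 0.71 without replicate 2 (adjusted p = 0.00234). MMP15 was at 99.7, 63.0 and 82.3 CPM in EV cells with vehicle and at 127, 77.3 and 135 with T3, which overlap. In TRB cells it was at 101, 99.9 and 102 CPM with vehicle and at 140, 9.35 and 168 with T3. Its log2 fold change was 0.07 (adjusted p = 0.953), and without replicate 2 it rose by 0.66 (adjusted p = 0.0321). In EV cells the log2 fold changes of all 3 were positive and missed the threshold in both fits. For MMP14 and MMP24 every EV library with T3 lay above every EV library with vehicle. Without replicate 2 of TRB with T3, the EV change was 0.52 for MMP14 (edgeR adjusted p = 0.0507) and 0.47 for MMP15. The difference between the responses missed the threshold for MMP14 (0.20, adjusted p = 0.558) and MMP15 (0.19, adjusted p = 0.7). In EV with T3, replicate 2 was the lowest of the 3 libraries for each of these genes.

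The gelatinases and stromelysins, often studied in invasive tumours, were nearly silent. MMP9 had 0 counts in every library. MMP2 had 15 counts in all: 1, 1 and 0 in EV cells with vehicle, 1, 0 and 1 in EV cells with T3, 0, 2 and 1 in TRB cells with vehicle and 6, 0 and 2 in TRB cells with T3. MMP3 had 2 counts in replicate 2 of EV with vehicle, 1 in replicate 1 of TRB with vehicle and 0 elsewhere, and MMP10 had 35 over all libraries. Among the genes just under the total of 120 were MMP11 with 68 counts, 25 of them in TRB with T3, MMP25 with 68, 55 of them in TRB with T3, and ADAM20 with 50. Just above it lay ADAM11 with 159, MMP13 with 165 and ADAM32 with 202.

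**Figure D2:**
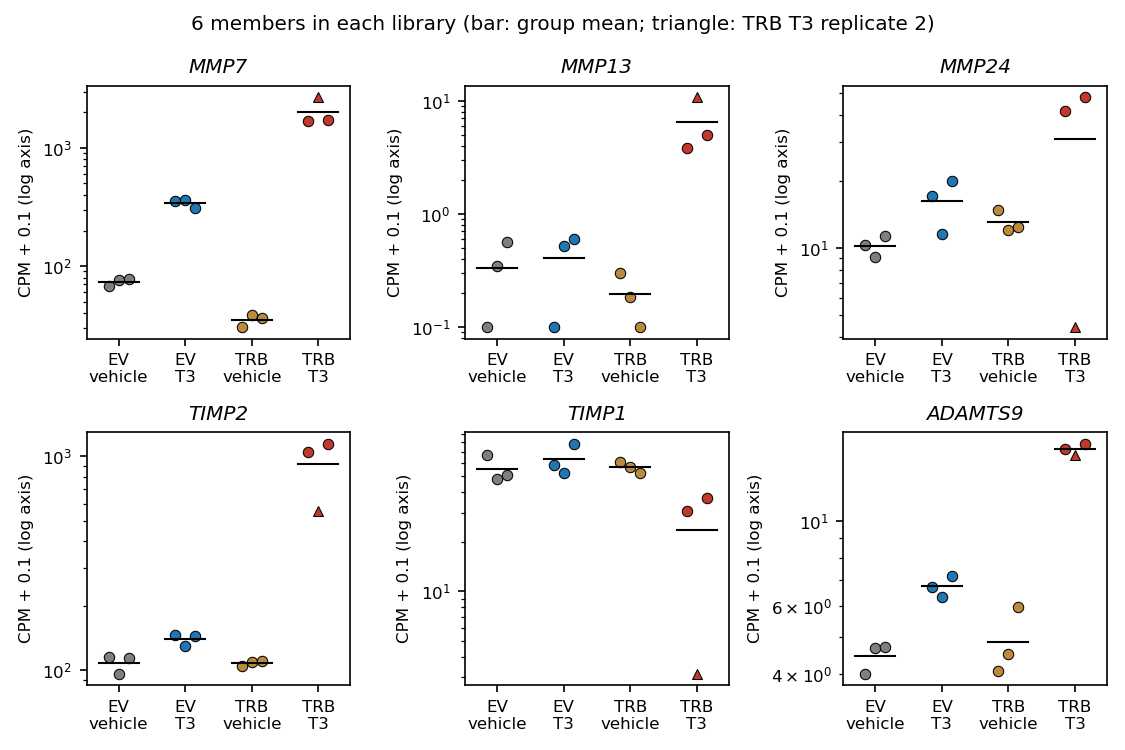
CPM plus 0.1 on a log axis for 6 members, 1 point per library, with a bar at each group's mean and a triangle for TRB with T3 replicate 2. MMP7, MMP13, TIMP2 and ADAMTS9 are highest in all 3 libraries of TRB with T3, whereas MMP24 and TIMP1 put replicate 2 apart, at 4.32 and 3.06 CPM.

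Of the inhibitors, TIMP2, which also assists the activation of proMMP2, changed most. Its gene lies on the minus strand at chr17:78852977-78925387 (hg38). TIMP2 was at 115, 96.4 and 114 CPM in EV with vehicle and at 146, 129 and 144 with T3. In TRB cells it was at 105, 109 and 111 CPM with vehicle and at 1049, 557 and 1143 with T3, so that TRB with T3 overlapped no other group. The rise in TRB cells was 3.08 on the log2 scale (SE 0.252 and adjusted p by edgeR 2.68e-05), and 3.39 without replicate 2 (SE 0.111). In EV cells the log2 fold change was 0.37 (SE 0.234, adjusted p = 0.935), and without replicate 2 it passed the test (0.37, SE 0.099, adjusted p = 0.0444). The response in TRB cells was larger by 2.72 (SE 0.336, adjusted p = 0.00269), or 3.02 without replicate 2 (adjusted p = 1.19e-07). Exons of TIMP2 and of CEP295NL overlap on the same strand, so the counts of the pair may be affected by how shared reads were handled. CEP295NL averaged 1.21 CPM in TRB with vehicle and 6.35 with T3 (log2 fold change 2.41, adjusted p = 0.00689), far below TIMP2. Exons of ADAM15 overlap DCST1 on the same strand, and those of ADAM10, ADAM17, ADAM19, ADAMTS9, ADAMTS17, MMP1, MMP24, TIMP2 and TIMP4 overlap other genes on the opposite strand. Whether the counting used strand is not stated in the sources used here.

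TIMP1, a secreted inhibitor of most MMPs, differed in the opposite direction. It was at 67.3, 47.6 and 50.9 CPM for EV with vehicle, 58.6, 52.3 and 78.2 for EV with T3, and 61.1, 56.6 and 51.8 for TRB with vehicle. The libraries of TRB with T3, at 30.5, 3.06 and 36.5 CPM, were below all of these. Over 12 libraries the log2 fold change in TRB cells was -1.26 (SE 0.598, edgeR adjusted p = 0.181). Without replicate 2, TIMP1 fell by 0.71 (SE 0.188, adjusted p = 0.0109), and its response differed from that in EV cells by -0.90 (adjusted p = 0.03). Per kilobase, TIMP1 averaged 35.9 CPM in EV with vehicle, above TIMP2 at 19.2, and 15.1 in TRB with T3 (21.7 without replicate 2), below TIMP2 at 163 (195). The order of the pair was thus opposite in these groups, with no overlap between them in either.

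TIMP4 was at 6.08, 7.19 and 7.54 CPM for EV with vehicle, 5.40, 5.60 and 5.57 for EV with T3, 7.42, 9.05 and 8.56 for TRB with vehicle and 7.05, 3.96 and 8.49 for TRB with T3. It passed no test over 12 libraries. Without replicate 2 it was higher in TRB than in EV cells with T3 by 0.53 on the log2 scale (edgeR adjusted p = 0.0489). TIMP3, which inhibits several ADAMs and ADAMTS enzymes as well as MMPs, was listed at 0 in all 12 libraries, and 0 counts allow up to 3 per library by counting error.

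Among the ADAMTS genes, ADAMTS9, a proteoglycan-cleaving enzyme, was the member whose value in the library that stood apart lay nearest those of the other replicates. ADAMTS9 was at 3.91, 4.58 and 4.60 CPM for EV with vehicle, 6.64, 6.23 and 7.09 for EV with T3, 3.96, 4.39 and 5.88 for TRB with vehicle and 15.2, 14.8 and 15.7 for TRB with T3. Its rise in TRB cells was 1.68 on the log2 scale (SE 0.191 and adjusted p by edgeR 0.000214), and 1.74 without replicate 2. Although EV with T3 lay above EV with vehicle in every library, that change missed the threshold in both fits. The difference between the responses was 1.09 with replicate 2 (edgeR adjusted p = 0.0677, DESeq2 adjusted p = 0.0275) and 1.17 without it (edgeR adjusted p = 0.00746). ADAMTS6 was at 62.8, 70.8 and 68.7 CPM in TRB with vehicle and at 127, 218 and 113 with T3, a rise of 1.18 (SE 0.249, adjusted p = 0.00943) or 0.88 without replicate 2 (adjusted p = 0.000668). In EV cells it was at 82.3, 94.6 and 81.6 CPM with vehicle and at 110, 132 and 89.6 with T3, which overlap.

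ADAMTS17 was at 1.02, 1.29 and 0.59 CPM in TRB with vehicle and at 6.75, 0 and 7.99 with T3. Replicate 2, at 0, lay at the other end from replicates 1 and 3. Over 12 libraries its change missed the threshold (log2 fold change 2.39, SE 0.825, edgeR adjusted p = 0.0786), and it passed without the filter on low counts (edgeR adjusted p = 0.0428) and by DESeq2 (adjusted p = 0.0456). Without replicate 2 it rose by 2.96 (SE 0.298, adjusted p = 7.81e-06), and this exceeded the change in EV cells by 2.50 (adjusted p = 0.00458). With 103 counts outside TRB with T3, ADAMTS17 is a member only because of that group, so its rise there is partly built into that choice. In EV cells its libraries were at 1.09, 1.63 and 1.01 CPM with vehicle and at 2.47, 1.48 and 1.27 with T3. ADAMTS13, which cleaves von Willebrand factor, passed no test in either fit. It was at 11.8, 11.5 and 10.2 CPM in TRB with vehicle and at 9.23, 0 and 7.99 with T3.

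Of the 9 ADAM genes, ADAM10 and ADAM17, the main releasing enzymes of growth factors and receptors at the cell surface, gave different results. ADAM10 was at 172, 216 and 199 CPM for EV with vehicle, 175, 238 and 125 for EV with T3, 136, 165 and 165 for TRB with vehicle and 298, 848 and 281 for TRB with T3. It was higher in each library of TRB with T3 than in any other, and highest in replicate 2. The rise in TRB cells was 1.61 on the log2 scale (SE 0.403 and adjusted p by edgeR 0.0218), and 0.94 without replicate 2 (SE 0.207, adjusted p = 0.00362). With all 3 T3 libraries kept, leaving out any 1 of the TRB vehicle libraries left it short of the threshold (adjusted p = 0.0808, 0.0608 and 0.0613). Its response exceeded that in EV cells by 1.06 without replicate 2 (adjusted p = 0.0243), and with it that difference missed the threshold (1.74, adjusted p = 0.146). ADAM17 was at 53.8, 58.7 and 57.6 CPM in TRB with vehicle and at 58.2, 140 and 57.3 with T3, and passed no test. In EV cells it was at 59.5, 71.3 and 60.8 CPM with vehicle and at 46.9, 56.3 and 38.5 with T3.

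ADAM19, another membrane protease, was at 114, 108 and 114 CPM for EV with vehicle, 77.8, 82.1 and 96.4 for EV with T3, 109, 102 and 108 for TRB with vehicle and 80.2, 37.6 and 80.3 for TRB with T3. The T3 libraries lay below the vehicle libraries in both kinds of cells. Over 12 libraries neither difference passed the test, and without replicate 2 it fell by 0.36 on the log2 scale in TRB cells (edgeR adjusted p = 0.0205) and by 0.39 in EV cells (adjusted p = 0.0328). ADAM32, which lacks protease activity, was at 0.87, 3.19 and 2.30 CPM in EV cells with vehicle and at 2.32, 1.80 and 1.01 with T3. In TRB cells it was at 1.32, 2.67 and 1.93 CPM with vehicle and at 0.83, 2.88 and 0.50 with T3. It fell by 1.45 without replicate 2 (adjusted p = 0.0438), on few counts, a call that a replicate block ended (log2 fold change -1.21, adjusted p = 0.0799), and its log2 fold change with it was -0.65 (adjusted p = 0.472). ADAM8, ADAM9, ADAM11, ADAM15 and ADAM22 passed no test in either fit. ADAM9, the member with the highest level per kilobase in EV cells with vehicle, ranged from 199 to 350 CPM in the 11 libraries and was at 501 in replicate 2 of TRB with T3. ADAM15 ranged from 74.0 to 152 CPM in the 11 libraries and was at 3.96 in replicate 2.

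**Figure D3:**
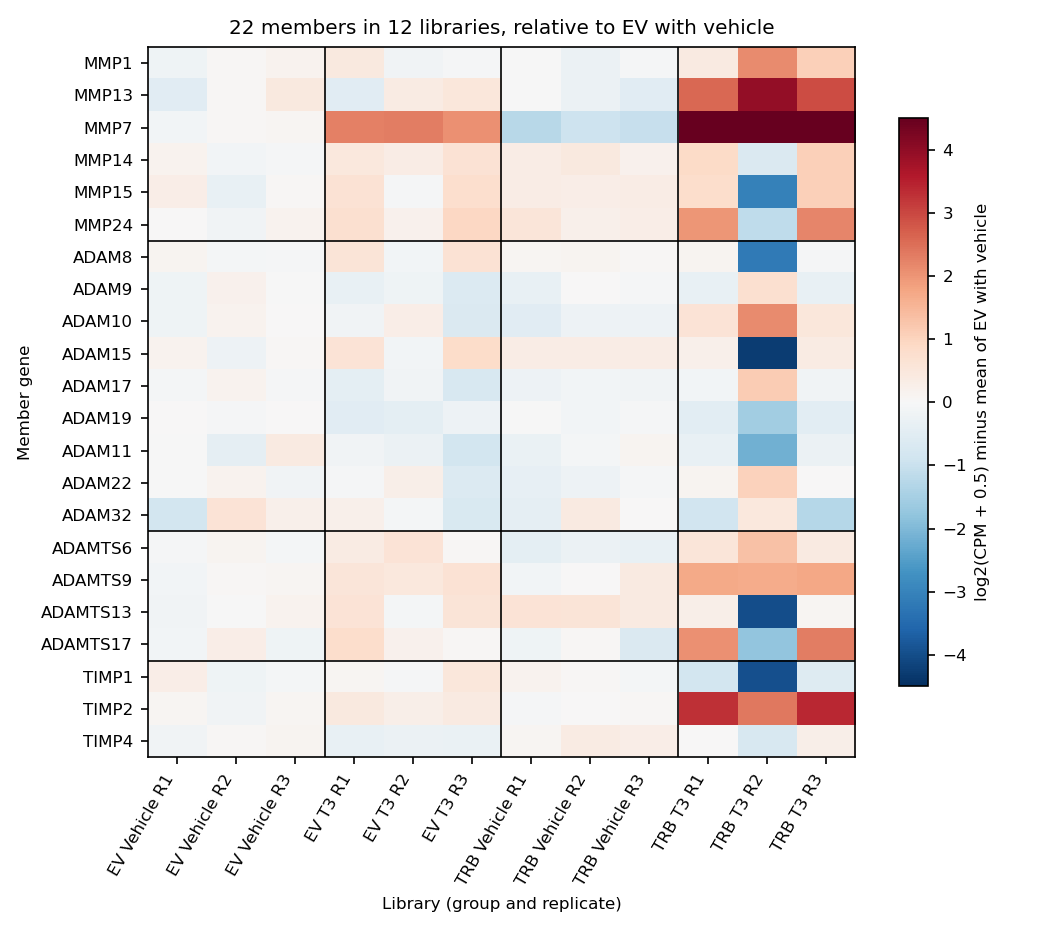
Log2 of CPM plus 0.5 minus the mean of EV with vehicle, for 22 members (rows, by family) in 12 libraries (columns, by group and replicate), on a color scale that ends at 4.5. MMP7 and TIMP2 are high in all 3 libraries of TRB with T3, and replicate 2 of that group differs from replicates 1 and 3 in ADAM15, MMP15 and TIMP1.

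Across the family, 7 of the 22 members rose with T3 in TRB cells over 12 libraries and none fell, where 14.7% of the 14431 genes tested passed in either direction. They were MMP7, MMP13, MMP1, TIMP2, ADAMTS6, ADAMTS9 and ADAM10. The members' median log2 fold change was 0.44, beside 0.01 over all genes tested. Without replicate 2, 11 members rose and 3 (ADAM19, ADAM32 and TIMP1) fell, where 33.3% of 14825 genes passed, and the medians were 0.49 and -0.01. All 6 MMPs were among the 11 that rose, with a median of 1.47. The 7 members called over 12 libraries were called in the same direction without replicate 2. All 22 members passed the filter on low counts in both fits. MMP13, MMP1 and ADAMTS17 reached the total of 120 only through TRB cells with T3. The counts and medians above include them, so these values partly reflect how the members were chosen.

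In EV cells 1 member, MMP7, passed over 12 libraries, where 0.229% of genes did, and 3 (MMP7 and TIMP2 higher, ADAM19 lower) without replicate 2 of TRB with T3, where 7.33% did. That library enters the comparison of EV cells through the shared estimate of the spread. It also enters through the scaling, the count filter and the adjustment of p-values, which were made anew without it. The members' median log2 fold changes were 0.28 and 0.27. In vehicle, TRB and EV cells differed in 0 members over 12 libraries by edgeR, where 0.0208% of genes passed. At an unadjusted p under 0.05, 1 member and 213 genes differed, and DESeq2 called 1 member. Replicate 2 of TRB with T3 enters this comparison in the same ways. With the compared groups alone, edgeR called 4 members, 2 of them higher in TRB cells, and 1563 genes. Without replicate 2 MMP7 was the 1 member that differed, where 0.0742% of genes passed.

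With T3, 4 members were higher in TRB than in EV cells over 12 libraries, where 6.68% of genes passed: MMP7 by 2.57 on the log2 scale (edgeR adjusted p = 0.000114), TIMP2 by 2.71 (0.000218), ADAMTS9 by 1.20 (0.00411) and MMP13. Without replicate 2, 9 members were higher and TIMP1 was lower (log2 fold change -0.84, adjusted p = 0.0075), where 19.7% of genes passed. The additional higher members were MMP24 (1.55), ADAMTS17 (2.10), ADAM10 (0.74, and past the threshold over 12 libraries by DESeq2, adjusted p = 0.00832), MMP14 (0.56) and TIMP4 (0.53). The size of the T3 response differed between TRB and EV cells for MMP7 and TIMP2 over 12 libraries, where 2.59% of genes passed. It differed for 8 members without replicate 2, where 15.2% passed, TIMP1 in the negative direction and the others in the positive. These comparisons share the libraries of TRB with T3 and are not independent of one another. MMP13 and ADAMTS17 are members only through their counts in that group.

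**Figure D4:**
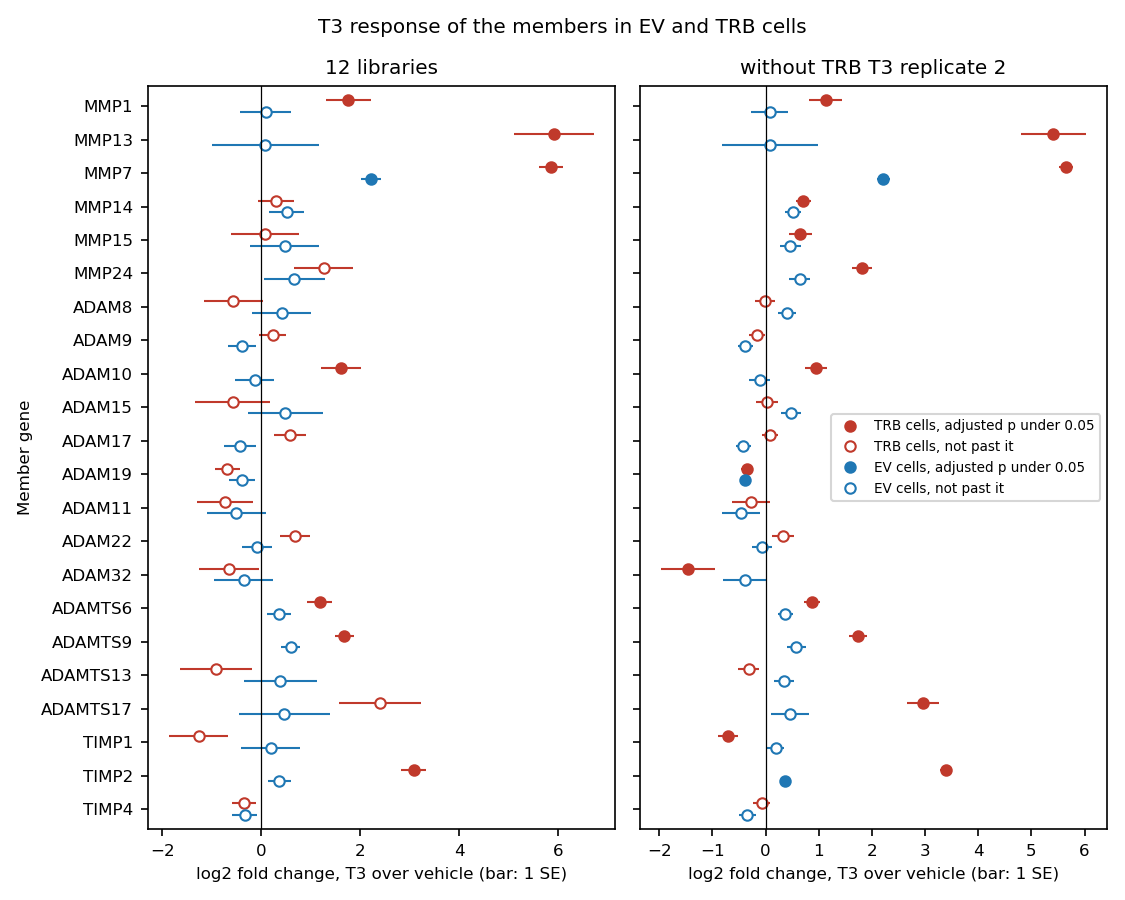
Log2 fold change of T3 over vehicle with 1 SE for each member, in TRB cells (red) and EV cells (blue), over 12 libraries and without TRB with T3 replicate 2; filled points have an edgeR adjusted p under 0.05. MMP7 is filled in both kinds of cells in both panels, and 7 members are filled for TRB cells on the left against 14 on the right.

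Genes that act beside the members were described from lists of the pathway. Their counts for T3 in TRB cells stand beside the 14.7% of all genes called over 12 libraries and the 33.3% called without replicate 2. In plasminogen activation, whose product plasmin activates several proMMPs, 3 of 7 tested genes rose with T3 in TRB cells and 1 fell over 12 libraries. Without replicate 2, 5 of 8 rose and 2 fell. PLAT, the tissue plasminogen activator, was at 0 in TRB with vehicle and at 4.43, 1.80 and 5.37 CPM with T3, at least 46.3-fold higher against a floor of 3 counts over the vehicle group (edgeR adjusted p = 0.00202, and 1.73e-05 without replicate 2). PLAUR, the receptor of urokinase, rose by 1.16 on the log2 scale (adjusted p = 0.0416), and by 1.57 without replicate 2. SERPINE2, an inhibitor of plasminogen activators and thrombin, fell by 2.14 (adjusted p = 0.000135), and by 2.39 without replicate 2. In EV cells neither PLAUR nor SERPINE2 passed over 12 libraries. Without replicate 2 of TRB with T3, PLAUR rose there (0.68, edgeR adjusted p = 0.0018) and SERPINE2 fell (-1.12, adjusted p = 0.00012). In that fit the responses differed between TRB and EV cells by 0.88 (adjusted p = 0.00171) and -1.26 (adjusted p = 0.000448). SERPINB6, an intracellular serpin, rose by 1.29 (adjusted p = 0.000245), or 1.35 without replicate 2, from 29.7, 33.9 and 29.04 CPM to 76.1, 73.6 and 76.2.

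Of the 4 proprotein convertases, which activate membrane-type MMPs and ADAMs, FURIN and PCSK5 rose with T3 in TRB cells. FURIN was at 68.5, 72.0 and 66.2 CPM with vehicle and at 460, 35.1 and 496 with T3, with replicate 2 below the vehicle libraries. Its rise was 2.26 over 12 libraries (SE 0.681, edgeR adjusted p = 0.0485) and 2.84 without replicate 2 (SE 0.163, adjusted p = 5.8e-08). PCSK5 rose by 1.14 (adjusted p = 0.000426), and by 1.16 without replicate 2, where PCSK6 also passed. In EV cells none of the 4 passed over 12 libraries and all 4 rose without replicate 2, FURIN by 0.69.

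Of 9 proteins that guide ADAM10 or ADAM17, 1 rose over 12 libraries. It was TSPAN14, a tetraspanin partner of ADAM10, which rose by 1.75 (edgeR adjusted p = 0.00553), and by 2.16 without replicate 2. In the latter fit TSPAN14 also rose in EV cells (0.55, edgeR adjusted p = 0.0123). The difference between its responses missed the threshold over 12 libraries (1.20, adjusted p = 0.207) and passed without replicate 2 (1.60, adjusted p = 5.36e-05). Without replicate 2, 2 of the 9 rose and 3 fell, among the latter TSPAN15, another ADAM10 partner, by 0.81. Of 5 tested EGF receptor ligands, which ADAMs release, 1 rose over 12 libraries: HBEGF was at 2.03, 1.90 and 2.01 CPM in TRB with vehicle and at 17.9, 31.8 and 21.98 with T3. HBEGF rose by 3.58 (SE 0.335, adjusted p = 6.3e-05), which exceeded its response in EV cells by 2.92 (adjusted p = 0.00889). Without replicate 2 these values were 3.36 and 2.69, and EREG, another ligand, fell by 0.90 (adjusted p = 0.0063). In that fit EREG also fell in EV cells (log2 fold change -0.71, edgeR adjusted p = 0.0437). The difference between its responses missed the threshold (-0.19, adjusted p = 0.688). Of 13 AP-1 and ETS transcription factors, which bind many MMP promoters, ATF3 (log2 fold change -1.97, adjusted p = 0.00244) and ETS2 (-0.61, adjusted p = 0.0126) fell and none rose, a share near that of all genes. Without replicate 2, ATF3 (-1.92) and ETS2 (-0.46) were among 5 that fell, and 1, FOSB, rose. In that fit ATF3 also fell in EV cells (-1.56, edgeR adjusted p = 0.0215). The difference between its responses missed the threshold (-0.36, adjusted p = 0.671). The remaining list of protease inhibitors and anchors had 1 of 7 genes with enough counts, BSG, which passed no test of the T3 response in TRB cells.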

How the data were processed

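Trizol RNA went into Kapa Hyperprep libraries, per the labels' protocols. The authors deposited raw read counts per gene symbol for each library. The submitters' processing notes name CASAVA 1.7, STAR 2.7, HTSeq 0.10, DESeq2 and hg38. They make no statement on strand, so the counts of overlapping genes may be affected. Rows that name no gene held 44.8% to 94.4% of each file's total and were left out. Among them, alignments that were not unique held 19.0% to 92.0% of the total. That share was lowest in replicate 2 of TRB with T3 and highest in replicate 3 of EV with T3. Replicate 2 of TRB with T3 also had the fewest genes with a count (17833) and a TMM factor of 0.786. The deposited normalized table was not used. Counts were tested in R 4.3.3 with edgeR 4.0.16 (quasi-likelihood, TMM scaling, filterByExpr with a minimum count of 10 and a minimum total of 15, 1 coefficient per group), two-sided, with Benjamini-Hochberg adjustment over all genes tested at 0.05. CPM are counts over TMM-scaled library totals. SE is the log2 fold change over the square root of F.

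The members, lists and tests were chosen with earlier results of these data known. Values per library are given for members past the threshold in either fit, up to the 10 largest fold changes per comparison, and, whatever their values, for the TIMPs, MMP1, MMP2, MMP3, MMP9, MMP13, MMP14, ADAM10 and ADAM17. Alternatives were other size factors, no count filter, the compared groups alone, a replicate block, DESeq2 1.42.0 and leaving out each library. The ADAM and ADAMTS genes were not split by protein motif, since no protein sequences were used here.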

Additional observations from a re-analysis of the deposited data

Results flagged for a closer look

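These members had a T3 response that differed between TRB and EV cells by the test of that difference itself (edgeR, adjusted p under 0.05). Over 12 libraries the log2 response was larger in TRB cells by 3.64 for MMP7 (adjusted p = 0.000295) and by 2.72 for TIMP2 (adjusted p = 0.00269), with every TRB library with T3 above every other library. Without replicate 2 of TRB with T3 the difference was 3.44 for MMP7, 3.02 for TIMP2, 5.33 for MMP13, 2.50 for ADAMTS17, 1.18 for MMP24, 1.17 for ADAMTS9, 1.06 for ADAM10 and -0.90 for TIMP1. The size for MMP13 rests on 3 counts in TRB with vehicle and depends on edgeR's prior count. MMP13 and ADAMTS17 are members only through their counts in TRB with T3, so their differences are partly built into that choice. For the 6 members other than MMP7 and TIMP2, the difference missed edgeR's threshold over 12 libraries with the count filter. MMP13 passed it without that filter (adjusted p = 0.0353), and MMP13 and ADAMTS9 passed by DESeq2 with replicate 2 kept (adjusted p = 0.00172 and 0.0275).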

How the results depend on the processing

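Calls of members are given in the order T3 in TRB cells, T3 in EV cells, TRB against EV in vehicle, TRB against EV with T3, and the difference between the responses; over 12 libraries edgeR called 7, 1, 0, 4 and 2. Leaving out 1 library at a time gave 5 to 14, 1 to 3, 0 to 1, 4 to 10 and 2 to 8, and the highest value of each came without replicate 2 of TRB with T3. Fitting the compared groups alone gave 4, 1, 4 and 1 for the first 4 comparisons, as the genes called in all went from 2128, 33, 3 and 964 to 634, 200, 1563 and 32. DESeq2 called 1 member (MMP7) in vehicle and 4 in the difference between the responses. Same-numbered libraries are not stated to share a culture or a day: 12 of 18 same-numbered pairs had deviations from their group means correlated over 0.1 (range -0.19 to 0.73), and 7 of 12 libraries correlated best with their own number. A replicate block gave 7, 1, 0, 5 and 2, and the block without replicate 2 of TRB with T3 gave 13, 7, 1, 11 and 10, with ADAM32 the member lost for T3 in TRB cells. In TRB cells, the log2 T3 response of MMP15, 0.07, was -0.29 with the block, and -0.14 and -0.39 without replicates 1 and 3 of TRB with T3 (0.66 without replicate 2); MMP14 in TRB against EV cells with T3, 0.12, was -0.18 without replicate 3 and 0.56 without replicate 2. With the compared groups alone, ADAM10, ADAMTS6 and MMP1 missed the threshold for T3 in TRB cells, and ADAMTS9, MMP13 and TIMP2 for TRB against EV with T3 (adjusted p = 0.0578 to 0.149); the cause was not tested. Depth limits MMP1, MMP13, ADAM11, ADAM32 and ADAMTS17 most.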
